A study of Mus musculus with 2 samples.

Results

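The expression of 40 cell cycle genes was followed across the cell types of the mouse Achilles tendon enthesis, the place where the tendon joins bone. The genes were given as a list of names, with no threshold on their values. They were 14 genes of S phase, when DNA is copied, 24 genes of G2 phase and mitosis (G2/M), when the copied chromosomes are condensed and separated, and 2 chromatin and microtubule genes, Hmgb2 and Stmn1, that are high in dividing cells but not limited to them. All 40 were present among the 32285 genes of the count matrices. Cells came from SKG mice, a strain that carries a mutation of the T cell kinase gene Zap70 and is used as a model of autoimmune arthritis and enthesitis. One droplet library (10x Genomics) was made from non-tail suspension mice and 1 from tail suspension mice, whose hind limbs do not bear weight. The labels used here name no age, number of mice or agent given to them. Both groups were of the SKG background, and both suspensions were digested with collagenase, treated to lyse red cells and depleted of dead cells.

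A dividing cell first builds up enzymes that make nucleotides and the helicase and clamp that carry the replication fork, under E2F transcription factors. It then switches on the mitotic genes, whose promoters carry CHR and CCAAT elements and are bound by the DREAM and MuvB complexes with MYBL2 and FOXM1. Most cells of adult tendon are quiescent, mature neutrophils have left the cell cycle for good, and their precursors still divide.

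The non-tail suspension library held 10636 kept cells and 115294380 unique molecules (UMIs), and the tail suspension library 13578 cells and 150136492 UMIs. The median depths were 4586 and 8328 UMIs per cell. The libraries shared 47 barcodes. With 1 library per group there was no replicate and no test. All intervals are 95% intervals, exact Clopper-Pearson for shares, exact Poisson for levels and exact conditional binomial for ratios of levels, and they cover counting error only. A difference between the libraries cannot be told apart from a difference between the mice, preparations or runs behind them. The cells fell into 33 clusters, and all but 2 of them were named from marker genes. The clusters were made without the 40 members, the 137 further cell cycle genes of the lists used below and histone genes. Cell cycle genes outside these lists, such as Cep55 and Pclaf, were not left out. The tendon was represented by cells led by Thbs4, Fmod, Comp and Chad. At least 100 cells in each library were found in 8 classes, which were compared. The remaining named classes are given side by side only.

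A cell was called cycling when, after thinning to 2000 UMIs, it held UMIs of at least 3 different S-phase genes or at least 3 different G2/M genes. Hmgb2 and Stmn1 were left out of the call. At this equal depth the largest share of cycling cells among the 8 compared classes was that of the immature neutrophils, the marrow stage that makes the granule proteins Camp, Ngp and Ltf. Among them 24.3% (17.4 to 32.2, 34 of 140 cells) were called in non-tail suspension and 19.9% (16.2 to 24.1, 82 of 412 cells) in tail suspension. Mature neutrophils were at the other end, with 3 called cells in each library, 0.0668% (0.0138 to 0.195) and 0.403% (0.0831 to 1.17). They show how often the call was made in 1 cell type that does not divide, and do not give that rate for other classes. Uncalled mature neutrophils held 63.8 and 59 UMIs of S-phase genes per 1000000 UMIs, against 144 and 176 in uncalled tenocytes. The median depths of mature neutrophils were 2775 and 3024 UMIs, against 11057 and 9364 in the immature cells, and both were thinned to the same depth.

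T cells were called in 10.3% (7.93 to 13) and 9.61% (7.79 to 11.7) of cells in non-tail suspension and tail suspension. Fibroblasts were called in 10.5% (8.63 to 12.6) and 6.92% (6.16 to 7.75). Monocytes were called in 16.3% (12.3 to 21.0) and 2.70% (1.70 to 4.06). Among the 8 classes monocytes therefore came after the immature neutrophils alone in non-tail suspension, and lay below T cells and fibroblasts in tail suspension. Without the monocytes that held progenitor genes, described below, their shares were 6.32% and 1.01%. They then lay below the T cell and fibroblast shares in both libraries. MHC-II myeloid cells, which present antigen, were called in 6.55% (3.31 to 11.4) and 3.68% (2.66 to 4.96). Macrophages were called in 2.44% (1.78 to 3.26) and 3.76% (2.83 to 4.88). Tenocytes, the matrix-making cells of the tendon, were called in 1.41% (0.753 to 2.40) and 0.995% (0.366 to 2.15). The tenocyte intervals lay above the mature neutrophil interval in non-tail suspension and overlapped it in tail suspension. The rate of false calls in tenocytes themselves was not measured. Without thinning the shares were larger, for example 42.7% of tenocytes in non-tail suspension, whose median depth was 24566 UMIs, and 9.54% in tail suspension, at 6574 UMIs.

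**Figure D1:**
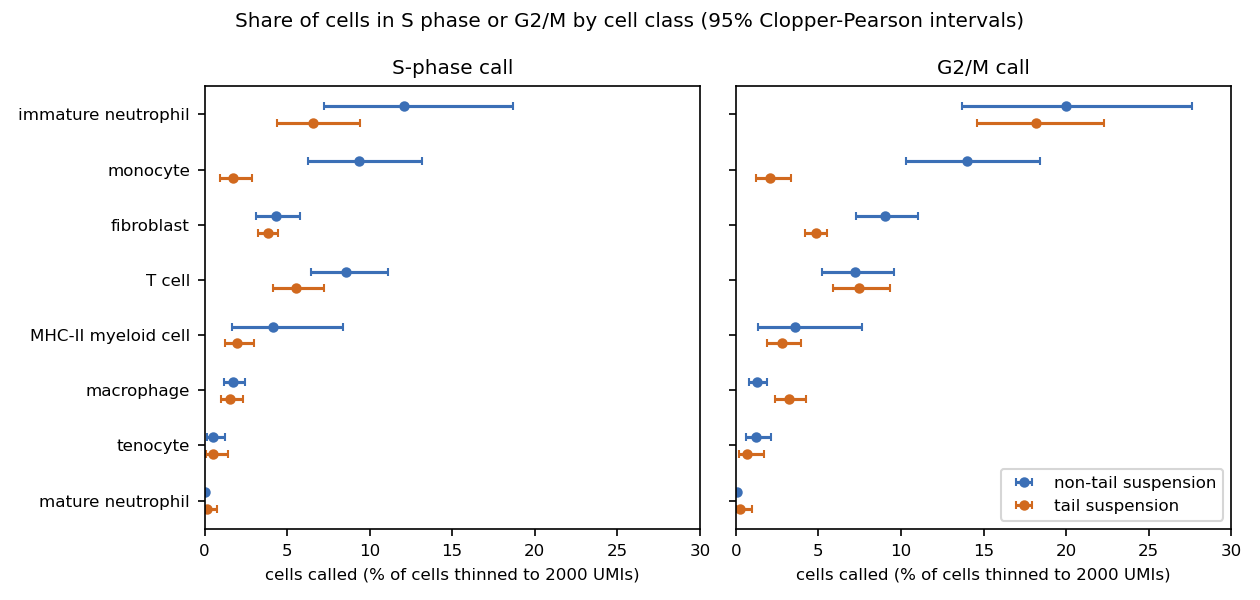
Share of cells called in S phase (left) and in G2/M (right), in percent of cells thinned to 2000 UMIs, for the 8 cell classes with at least 100 cells in each library. Points are 1 library each (blue, non-tail suspension; orange, tail suspension) and bars are exact Clopper-Pearson intervals; immature neutrophils have the highest G2/M shares (20% and 18.2%) and mature neutrophils are near 0 in both panels.

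The S-phase and G2/M calls did not take equal parts in each class. Among immature neutrophils 12.1% and 6.55% were S-called and 20% and 18.2% G2/M-called. In T cells 8.56% (6.42 to 11.1) and 5.55% (4.17 to 7.21) were S-called and 7.19% (5.23 to 9.6) and 7.47% (5.87 to 9.34) G2/M-called. The more frequent call was S in non-tail suspension and G2/M in tail suspension, but the intervals of the 2 calls overlapped in each library. Fibroblasts had 4.31% and 3.82% S-called cells against 9.03% and 4.83% G2/M-called cells. Of all cycling cells, 33.5% in non-tail suspension and 28.6% in tail suspension were called for both phases.

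The summed level of the members ordered the 8 compared classes much as the call did in non-tail suspension, and less so for S-phase genes in tail suspension. Here and in the levels of single genes below, order and highest level refer to these 8 classes. The 14 S-phase genes together reached 756 UMIs per 1000000 UMIs of the class (CPM) in monocytes of non-tail suspension, 730 in immature neutrophils and 705 in T cells, 3 values whose counting intervals overlapped from one to the next. Fibroblasts had 392, MHC-II myeloid cells 332, macrophages 264, tenocytes 166 and mature neutrophils 68.6 CPM. In tail suspension T cells came first with 635 CPM, then fibroblasts with 414, immature neutrophils with 384, monocytes with 342, macrophages with 303, MHC-II myeloid cells with 281, tenocytes with 208 and mature neutrophils with 74.2. For the 24 G2/M genes the immature neutrophils came first among the 8 classes in both libraries, with 1652 and 1249 CPM. Next were monocytes (1313 CPM) and T cells (1243 CPM) in non-tail suspension and T cells (1009 CPM) and fibroblasts (597 CPM) in tail suspension. Monocytes, MHC-II myeloid cells and macrophages of tail suspension had 389, 384 and 368 CPM, and neighbours among these 3 overlapped. Some classes outside the 8 had larger sums. B cells had 1386 and 263 CPM of S-phase genes and 2965 and 239 CPM of G2/M genes in non-tail and tail suspension. Keratinocytes of tail suspension had 1242 CPM of S-phase genes and 2942 CPM of G2/M genes. In sets of at least 10 called cells, called and other cells differed by more CPM than the 8 classes did. Among the 8 compared classes, sheath or lining fibroblasts, B cells and keratinocytes, the sets of at least 10 called cells held between 1039 and 2463 CPM of S-phase genes and between 2174 and 5646 CPM of G2/M genes, levels that follow from the call itself.

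Among the S-phase genes, those that make deoxynucleotides differed in where they were highest. Tyms, thymidylate synthase, was highest in fibroblasts in both libraries, with 65.3 and 39.4 CPM. Rrm2, the regulated subunit of ribonucleotide reductase, was highest in immature neutrophils, with 157 and 82.4 CPM, and reached 40.2 and 32.4 CPM in fibroblasts. Its partner subunit Rrm1 was highest in T cells, with 61.2 and 45.2 CPM. Tk1, thymidine kinase, was at 38.9 and 15.5 CPM in immature neutrophils and at 33.0 and 26.5 CPM in fibroblasts. The class with the highest level thus differed among these 4 genes of 1 pathway.

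The helicase genes of the replication fork were highest in blood cells. The subunits Mcm2, Mcm3, Mcm4, Mcm5, Mcm6 and Mcm7 were each at 19.1 to 65.2 CPM in T cells of both libraries and at 9.44 to 24.4 CPM in fibroblasts. Mcm6 was at 53.3 and 65.2 CPM in T cells, 15.3 and 21.5 CPM in fibroblasts and 1.42 and 2.26 CPM in mature neutrophils. Pcna, the sliding clamp, which also serves DNA repair, was the least restricted S-phase gene. It was at 206 and 185 CPM in T cells and still at 43.5 and 33.3 CPM in mature neutrophils and 59.0 and 81.5 CPM in tenocytes. Gins2, a part of the active helicase, was highest in fibroblasts at 17.9 and 19.2 CPM, close to the 17.7 CPM of monocytes in non-tail suspension. Uhrf1, which keeps DNA methylation through replication, was highest in immature neutrophils (30.9 CPM) in non-tail suspension and in T cells (26.7 CPM) in tail suspension. Ccne1, cyclin E1 of the entry into S phase, was lowest in mature neutrophils in both libraries, at 0.452 and 0.846 CPM.

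**Figure D2:**
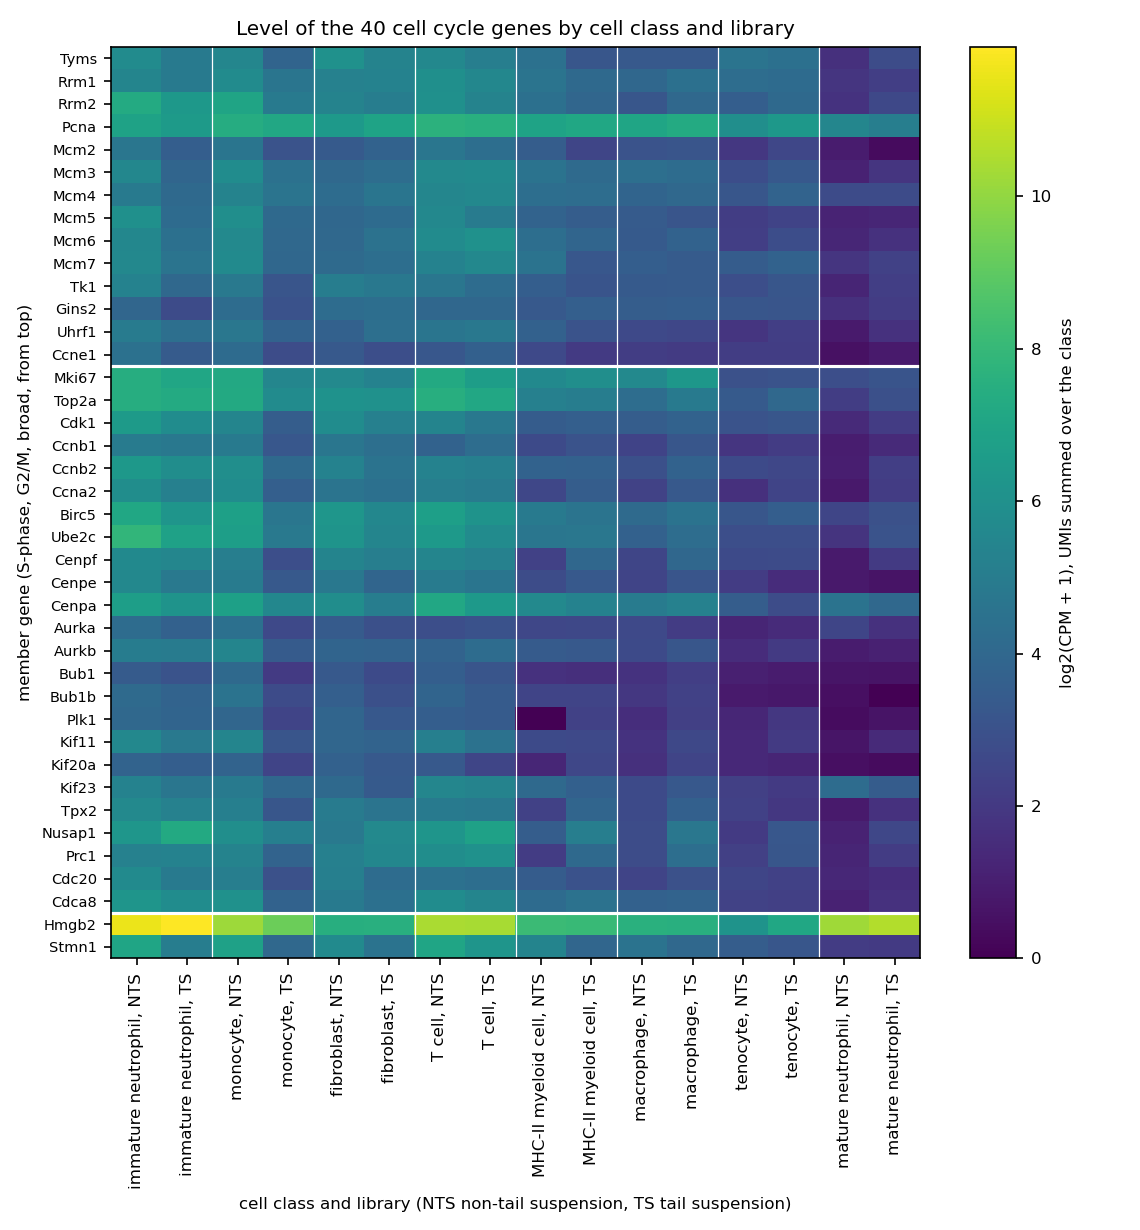
Level of each of the 40 genes (rows; white lines part S-phase, G2/M and the 2 broad genes) in 8 cell classes and 2 libraries (columns), as log2(CPM + 1) of UMIs summed over the class; colour runs from dark (0) to yellow. Immature neutrophils, T cells and the monocytes of non-tail suspension are the brighter columns, mature neutrophils are dark except for Hmgb2 (1220 and 1533 CPM), Pcna, Cenpa and Kif23.

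In G2/M, the kinase and cyclin genes were highest in immature neutrophils in both libraries. Cdk1, the mitotic kinase, was at 89.3 and 55.7 CPM there, its partners Ccnb1 at 30.9 and 26.5, Ccnb2 at 81.4 and 57.1 and Ccna2 at 56.9 and 36.1 CPM. In mature neutrophils all 4 were at or below 3.67 CPM. Mki67, which coats mitotic chromosomes, was at 174 and 134 CPM in immature neutrophils, 153 and 101 CPM in T cells and 48.8 and 38.1 CPM in fibroblasts. Top2a, which untangles sister DNA, was at 173 and 159 CPM in immature neutrophils, 178 and 143 CPM in T cells and 68.1 and 65.0 CPM in fibroblasts.

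The genes of chromosome attachment and separation had a similar order with exceptions. Birc5 and Cdca8, parts of the chromosomal passenger complex, were highest in immature neutrophils (138 and 74.4, 73.9 and 54.8 CPM), while their kinase Aurkb was highest in monocytes of non-tail suspension (41.9 CPM). Ube2c and Cdc20, which work with the anaphase-promoting complex, were at 230 and 114 and at 51.4 and 29.2 CPM in immature neutrophils. Cenpa, the centromere histone, was highest in T cells, at 142 and 85.6 CPM, and kept 22.6 and 15.5 CPM in mature neutrophils. The kinesin Kif23 of the central spindle had 43.5 and 39.4 CPM in T cells and 17.9 and 10.2 CPM in mature neutrophils. By contrast the kinesins Kif11 and Kif20a were at or below 1.69 CPM in mature neutrophils. Cenpe and Cenpf of the kinetochore, the spindle genes Aurka and Tpx2, the kinase Plk1 and the checkpoint genes Bub1 and Bub1b were at or below 4.65 CPM in mature neutrophils of both libraries, and Bub1b had no UMI there in tail suspension, with an upper bound of 1.04 CPM. Where they were highest, Cenpf was at 50.9 and 43.4 CPM, Cenpe at 46.4 and 27.6 CPM and Tpx2 at 48.9 and 37.0 CPM, all in immature neutrophils. The checkpoint genes Bub1 and Bub1b were highest in monocytes of non-tail suspension, at 16 and 22.2 CPM. Plk1 had no UMI in the 176 MHC-II myeloid cells of non-tail suspension, with an upper bound of 1.36 CPM, and was at 4.01 CPM in tail suspension.

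Promoter sequences from RefSeq (GRCm38.p6, 250 bases before to 50 bases after the start of each gene) were matched for 33 of the 40 members. They were searched on both strands for the CHR word TTTGAA, the CCAAT box CCAAT and 4 E2F words, TTTCCCGC, TTTCGCGC, TTTGCCGC and TTTGGCGC. An E2F word was found for 5 of 12 S-phase genes (Mcm3, Mcm5, Mcm6, Mcm7 and Uhrf1) and for 1 of 20 G2/M genes (Cdk1), beside 2.26% of all 32851 promoters. A CHR word was found for 1 of 12 S-phase genes (Mcm2) and for 15 of 20 G2/M genes, beside 17.9% of all promoters. A CCAAT box was found for 9 of 12 and 18 of 20, beside 37.4%. These are matches of letters and not shown to be bound. The words can overlap each other, as in Mcm6, and Mcm7, Uhrf1 and Prc1 had 2 starts each, either of which could hold the match. Nusap1, Birc5, Tyms, Tk1 and Ccne1 held none of the words in this window.

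The 250 bases before the start of the 3 S-phase and 3 G2/M genes with most matches (ties broken by UMI count) are shown, with all matches in capitals, as examples of where the words lie. They lie at chr1:20820313-20820562 (minus strand), chr1:128359706-128359955 (minus strand), chr5:138171884-138172133 (minus strand), chr11:99024190-99024439 (minus strand), chr10:69352913-69353162 (minus strand) and chr2:164769679-164769928 (plus strand). Each is read 5′ to 3′ toward the gene.
Mcm3: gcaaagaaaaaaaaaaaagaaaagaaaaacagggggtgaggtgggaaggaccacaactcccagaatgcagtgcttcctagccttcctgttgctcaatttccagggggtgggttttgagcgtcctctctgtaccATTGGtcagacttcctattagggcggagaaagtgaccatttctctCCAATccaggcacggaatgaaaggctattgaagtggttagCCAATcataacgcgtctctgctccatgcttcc
Mcm6: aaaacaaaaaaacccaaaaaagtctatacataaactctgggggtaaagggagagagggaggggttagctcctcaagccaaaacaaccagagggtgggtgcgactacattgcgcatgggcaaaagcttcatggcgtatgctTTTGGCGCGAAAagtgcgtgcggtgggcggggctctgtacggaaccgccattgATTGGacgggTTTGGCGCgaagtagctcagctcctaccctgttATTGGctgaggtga
Mcm7: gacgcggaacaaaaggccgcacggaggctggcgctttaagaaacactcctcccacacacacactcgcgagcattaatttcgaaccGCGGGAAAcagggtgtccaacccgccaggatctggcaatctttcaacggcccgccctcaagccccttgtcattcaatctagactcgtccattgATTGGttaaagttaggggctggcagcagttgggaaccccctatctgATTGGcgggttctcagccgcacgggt
Top2a: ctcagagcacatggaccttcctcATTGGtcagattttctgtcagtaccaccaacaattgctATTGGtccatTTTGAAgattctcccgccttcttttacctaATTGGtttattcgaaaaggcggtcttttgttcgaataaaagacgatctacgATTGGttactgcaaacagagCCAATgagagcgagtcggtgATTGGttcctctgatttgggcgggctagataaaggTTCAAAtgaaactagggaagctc
Cdk1: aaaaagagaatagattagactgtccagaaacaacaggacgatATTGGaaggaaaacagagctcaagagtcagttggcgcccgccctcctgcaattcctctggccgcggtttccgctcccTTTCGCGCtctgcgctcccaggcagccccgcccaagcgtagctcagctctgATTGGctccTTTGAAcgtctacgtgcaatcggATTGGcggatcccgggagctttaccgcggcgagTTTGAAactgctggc
Ube2c: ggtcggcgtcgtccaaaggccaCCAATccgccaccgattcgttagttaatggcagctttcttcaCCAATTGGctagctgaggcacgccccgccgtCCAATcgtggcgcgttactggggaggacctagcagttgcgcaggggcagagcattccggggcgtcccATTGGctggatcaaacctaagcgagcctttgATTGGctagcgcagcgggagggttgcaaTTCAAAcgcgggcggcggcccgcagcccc
In the shown stretches Mcm6 holds 3 E2F words and 2 CCAAT boxes, and Top2a holds 2 CHR words and 6 CCAAT boxes. The E2F words of Mcm3 lie after the start, at bases 20 and 39, outside the stretch shown, as do an E2F word of Mcm7 at base 17 and a CCAAT box at base 24. Cdk1 is the G2/M gene with words of all 3 kinds.

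Hmgb2 and Stmn1 had not been used to call cells. Called and other cells were compared in 12 class and library sets with at least 20 called cells, from the 8 compared classes and the sheath or lining fibroblasts, and the 34 called keratinocytes of tail suspension were not compared. Both genes were higher in called cells in each of the 12 sets. Hmgb2, a chromatin protein, went from 76.8 to 651 CPM in fibroblasts of non-tail suspension and from 88.4 to 687 CPM in tail suspension. In immature neutrophils it went from 1701 to 4937 and from 2443 to 7580 CPM. It stayed at 1220 and 1533 CPM over all mature neutrophils, which had almost no cycling cells. Stmn1, which takes microtubules apart, went from 10.0 to 605 CPM in T cells of non-tail suspension and from 20.6 to 278 CPM in tail suspension, and was at 3.3 and 3.1 CPM in mature neutrophils. Hmgb2 was thus high in the neutrophil line with and without the call, while Stmn1 was between 4.26 and 20.6 CPM in the uncalled cells of all 12 sets.

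Other cell cycle genes moved with the call to different extents. 5 lists of 137 further genes were chosen by function, and they share no gene with the call. Of the list of 59 mitosis genes, all measured ones were higher in called cells in 10 of the 12 sets, and 43 of 44 and 48 of 49 in the immature neutrophils of the 2 libraries, with medians between 3.67 and 5.53 on the log2 scale. The replication list was higher for every measured gene in all 12 sets, with medians between 2.11 and 3.70. The transcription factor genes Foxm1 and Mybl2 were higher in called cells in every set, Foxm1 from 1.46 to 42.0 CPM and Mybl2 from 0.221 to 17.2 CPM in fibroblasts of non-tail suspension. The median of all genes in these sets lay between -0.05 and 0.36. Called cells had more UMIs in all 12 sets, for example a median of 47534 against 24238 in fibroblasts of non-tail suspension, and the part of depth in these levels was not tested.

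The genes that hold the cycle back split. The antiproliferative genes Btg1 and Btg2 were lower in called cells in each of the 12 sets. For Btg2 in MHC-II myeloid cells of tail suspension the interval included 0 (from 169 to 152 CPM, log2 ratio -0.16, -0.44 to 0.12). Btg1 went from 2625 to 1339 CPM in T cells of non-tail suspension and from 1885 to 743 CPM in tail suspension. Cdkn2c, the CDK4 and CDK6 inhibitor p18, was higher in called cells in all 12 sets, from 4.25 to 56.2 CPM in macrophages of non-tail suspension. Cdkn1a, the p21 gene, was higher in called fibroblasts in non-tail suspension, 206 against 125 CPM, and lower in tail suspension, 145 against 266 CPM. Myc was lower in called than in other fibroblasts in both libraries, 72.2 against 135 and 139 against 282 CPM, and higher in called macrophages, 42.8 against 16.6 and 43.3 against 20.1 CPM. Among the G1 genes, Cdk4 was higher in called cells in all 12 sets, while cyclin D differed by lineage. Ccnd2 went from 3.64 to 37.0 CPM in monocytes but from 219 to 89.0 CPM in T cells of non-tail suspension.

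Outside the lists, the genes whose profile over 8 classes and 2 libraries was most like the summed members were Cep55, with a Pearson r of 0.99 between log2(CPM + 1) values, Pclaf (0.98), Cenps and Cip2a (0.97), Ska1, Poc1a and Trip13 (0.96), Ncapd3 and Hist1h2ae (0.95) and Hist1h1b (0.94). They were picked as the 10 highest of 12049 genes, and the 16 points share 2 libraries and 8 classes. Cep55 was at 15.6 CPM where it was highest, in monocytes of non-tail suspension, and Pclaf at 227 CPM in the same cells.

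The 2 libraries were then compared. Over all kept cells, 3.66% (3.30 to 4.05, 358 of 9786 cells) were cycling in non-tail suspension and 6.56% (6.12 to 7.01, 798 of 12169 cells) in tail suspension, a log2 ratio of 0.84 (0.66 to 1.03). Without the mature neutrophils the shares were 6.71% and 6.96%, a log2 ratio of 0.05 (-0.13 to 0.24). Mature neutrophils were 5101 of the kept cells in non-tail suspension and 974 in tail suspension. The difference over all cells was not seen over the cells other than mature neutrophils. The cycling cells also came from different classes. Fibroblasts and sheath or lining fibroblasts gave 27.9% and 2.79% of them in non-tail suspension and 35.2% and 17.4% in tail suspension. Monocytes gave 13.7% and 2.76%.

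Among the classes of the 8 whose interval excluded 0, monocytes showed the largest difference in the share of cycling cells. The share was 16.3% (49 of 300 cells) in non-tail suspension and 2.70% (22 of 814 cells) in tail suspension, a log2 ratio of -2.60 (-3.39 to -1.84). All 40 members were lower in tail suspension, with a median log2 ratio of -1.76, and 35 were at least 2-fold lower. Of all 10610 genes measured in monocytes, 5.80% were at least 2-fold lower and 8.93% at least 2-fold higher, and the median of all genes was 0.01. Mki67 was at 148 and 43.9 CPM (log2 ratio -1.75, -1.95 to -1.56) and Top2a at 154 and 53.4 CPM (-1.53). Mcm6 was at 48.5 and 15.7 CPM (-1.63) and Ccnb1 at 29.3 and 8.49 CPM (-1.79). The most negative ratios were those of Stmn1 (113 and 15.4 CPM, -2.88), Kif11 (42.1 and 7.90 CPM, -2.41) and Cenpf (33.8 and 6.44 CPM, -2.39). Pcna was nearest to equal, at 167 and 144 CPM (-0.22, -0.35 to -0.08), and its sign turned without the cells described next (0.40). The share kept its direction under each alternative that gave a monocyte class, between -3.18 and -1.29. With cell cycle genes kept in the clustering, at resolution 0.5, and in a separate clustering of each library, one or both libraries had no monocyte class.

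The cycling monocytes carried genes of granulocyte and monocyte progenitors. The 5 genes Mpo, Elane, Prtn3, Ctsg and Ms4a3 together were at 7574 CPM in called and 276 CPM in other monocytes of non-tail suspension, and at 3749 and 198 CPM in tail suspension. At least 3 of the 5 were found in 33 of 49 called cells (67.3%) and in 14 of 251 other cells (5.58%) of non-tail suspension, and in 14 of 22 (63.6%) and 10 of 792 (1.26%) of tail suspension. Without the cells that held at least 3 of these genes, the cycling shares were 6.32% and 1.01% and the log2 ratio was -2.64 (-4.08 to -1.33). Without them 2 of 39 measured members were higher in tail suspension, against 0 of 40. In macrophages the 5 genes summed to at most 15.2 CPM in called or other cells of either library.

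Immature neutrophils were called cycling in 24.3% and 19.9%, a log2 ratio of -0.29 (-0.88 to 0.33), so no difference was detectable at this depth. The members were lower in sum, S-phase genes more so (730 and 384 CPM, log2 ratio -0.92, -1.03 to -0.82) than G2/M genes (1652 and 1249 CPM, -0.40, -0.47 to -0.34). Of the 14 S-phase genes all were lower and 8 at least 2-fold lower, and of the 24 G2/M genes 22 were lower and 1 at least 2-fold lower. Of all genes measured in this class 8.37% were at least 2-fold lower and 6.24% at least 2-fold higher, with a median of -0.23. Mcm5 was at 63.9 and 17.1 CPM (-1.90), Mcm3 at 44.9 and 13.9 (-1.69) and Mcm6 at 44.9 and 20.5 (-1.13). Mki67 was at 174 and 134 CPM (-0.38), Top2a at 173 and 159 (-0.13, -0.31 to 0.06), Pcna at 117 and 90.8 (-0.37) and Ccnb1 at 30.9 and 26.5 (-0.23, -0.68 to 0.24). With median-of-ratios scaling 7 of the 40 members were higher in place of 3. Against the lower members, Nusap1 was at 76.9 and 152 CPM (0.99) and Hmgb2 at 3131 and 3987 CPM (0.35). The progenitor genes named above summed to 5454 CPM in called cells of non-tail suspension and 1862 CPM in those of tail suspension. Without the cells that held at least 3 of these genes, the cycling shares were 16.8% and 15.1%, a log2 ratio of -0.15 (-0.89 to 0.64). The log2 ratio of the summed S-phase and G2/M genes was then -0.50, against -0.54 with all cells. Then 2 of the 40 members were higher in place of 3.

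Fibroblasts were called cycling in 10.5% (100 of 952 cells) and 6.92% (281 of 4059 cells), a log2 ratio of -0.60 (-0.94 to -0.26), and the G2/M call made the difference, at 9.03% and 4.83% (-0.90, -1.28 to -0.52). Within clusters the direction was the other one. Cluster 2, led by Col1a2, Fbn1 and Cxcl5, had 17.8% (10.5 to 27.3, 16 of 90 cells) and 31.2% (27.9 to 34.6, 236 of 757 cells). Cluster 3, led by Cxcl5, Mmp3 and Col1a1, had 12.9% (10.4 to 15.8, 83 of 642 cells) and 16.2% (6.19 to 32.0, 6 of 37 cells). Few cycling cells were found in cluster 1 (Pi16, Ptx3 and Has1) with 0 of 97 cells, which at a floor of 3 counts allows up to 3.09% (Clopper-Pearson upper limit 3.73%), and 0.647%. The same held in cluster 4 (Myoc, Igfbp3 and Angptl7) with 0 of 67, which allows up to 4.48% (upper limit 5.36%), and 0.611%. Cluster 21 (Apod, Cxcl14 and Ptx3) had 1.96% and 2.35%. Clusters 2 and 3 thus held 16 and 83 of the 100 cycling fibroblasts in non-tail suspension and 236 and 6 of the 281 in tail suspension. They held 91 and 645 of 966 fibroblasts in the first library and 770 and 39 of 4295 in the second. Clusters 0 and 3 came almost only from non-tail suspension (882 and 68, 645 and 39 cells), and their names changed with the clustering. The share ratio of the fibroblast class ranged from -0.90 to 1.65 over the alternatives.

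**Figure D3:**
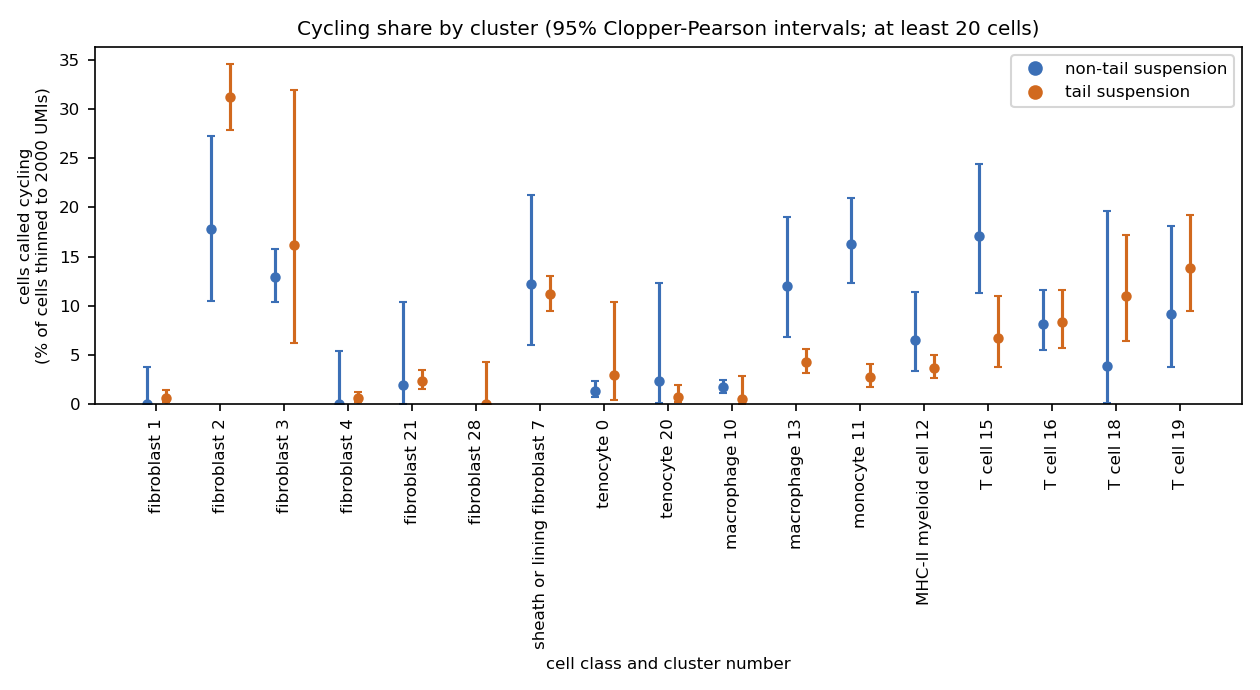
Share of cells called cycling, in percent of cells thinned to 2000 UMIs, for each cluster of 7 classes (numbers are cluster numbers); points are 1 library each (blue, non-tail suspension; orange, tail suspension) with exact Clopper-Pearson intervals, and sets under 20 cells are left out. Fibroblast cluster 2 has the highest share, 31.2% in tail suspension and 17.8% in non-tail suspension, while fibroblast clusters 1 and 4 are near 0.

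In the fibroblast class as a whole 2 of 24 G2/M genes were higher and 22 lower in tail suspension (median -0.55), while 10 of 14 S-phase genes were higher (median 0.21). Of all genes measured in fibroblasts 53% were higher, with a median of 0.05. No S-phase gene was 2-fold different and Cdc20 was the only G2/M gene at least 2-fold lower, beside 7.35% of all genes at least 2-fold lower and 11.4% at least 2-fold higher. Cdc20 was at 35.3 and 17.5 CPM (-1.01), Cenpe at 26.6 and 14.0 (-0.93) and Stmn1 at 52.0 and 22.6 (-1.20). Mki67 was at 48.8 and 38.1 CPM (-0.36), Ccnb1 at 24.7 and 19.4 (-0.35) and Top2a at 68.1 and 65.0 (-0.07, -0.15 to 0.01). On the higher side were Nusap1 (27.2 and 47.8 CPM, 0.81), Uhrf1 (12.0 and 19.5, 0.70), Mcm6 (15.3 and 21.5, 0.50) and Pcna (87.2 and 120, 0.46). The signs of Mki67 and Ccnb1 turned under 5 of 12 alternatives. In the connective tissue classes joined (fibroblast, tenocyte and sheath or lining fibroblast, joined after these borders were seen to move) the cycling shares were 6.29% (5.25 to 7.46) and 7.21% (6.56 to 7.90), a log2 ratio of 0.20 (-0.10 to 0.50). There 34 of 40 members were higher, with a median of 0.38, and 3 at least 2-fold higher, beside 10% of all genes at least 2-fold higher and 6.44% at least 2-fold lower and a median of all genes of 0.06. With doublets kept, when cluster 0 lost its name, and in a separate clustering of each library this share ratio was -0.52 and -0.44.

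Macrophages were called cycling in 2.44% (44 of 1805 cells) and 3.76% (53 of 1411 cells), a log2 ratio of 0.62 (0.02 to 1.23), again with another direction within clusters. Cluster 13, led by Pf4, C1qc and Mrc1, had 12.0% (6.87 to 19.0, 15 of 125 cells) and 4.26% (3.20 to 5.55, 52 of 1221 cells). Cluster 10, led by Lyz2, Cd74 and C1qb and with as many MHC-II as macrophage genes among its top 10, had 1.73% (29 of 1680 cells) and 0.526% (1 of 190 cells). The first library lay mostly in cluster 10 and the second in cluster 13. Of the 24 G2/M genes 23 were higher in tail suspension in the class as a whole, 7 of them at least 2-fold, with a median of 0.71, while the 14 S-phase genes had a median of 0.04. Of all genes 16% were at least 2-fold higher and 4.36% at least 2-fold lower, and the median of all genes was 0.29. Mki67 was at 48.2 and 78.9 CPM (0.71, 0.60 to 0.82), Top2a at 18.6 and 29.9 (0.69), Ccnb1 at 4.36 and 8.10 (0.89), Mcm6 at 9.58 and 12.4 (0.38) and Pcna at 132 and 159 (0.27). The largest ratios were those of Nusap1 (5.79 and 26.0 CPM, 2.17), Prc1 (5.79 and 18.8, 1.70) and Cenpf (4.66 and 14.7, 1.66). Aurka (5.19 and 3.37 CPM, -0.62), Stmn1 (22.9 and 15.7, -0.54) and Mcm5 (9.85 and 7.97, -0.31, -0.63 to 0.01) were on the lower side. With median-of-ratios scaling Pcna lay at -0.02, and 23 in place of 31 of the 40 members were higher.

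MHC-II myeloid cells were called cycling in 6.55% (11 of 168 cells) and 3.68% (41 of 1113 cells), a log2 ratio of -0.83 (-1.82 to 0.28), so no difference was detectable. Their S-phase and G2/M genes went apart. Of the S-phase genes 12 of 14 were lower (median -0.53, 3 at least 2-fold), and of the G2/M genes 15 of 24 were higher (median 0.11, 7 at least 2-fold, Plk1 with no UMI in non-tail suspension among them). Of all genes 9.43% were at least 2-fold higher and 5.03% at least 2-fold lower, with a median of 0.10. Mcm7 was at 22.4 and 8.58 CPM (-1.39), Tyms at 21.3 and 8.34 (-1.35) and Stmn1 at 41.5 and 14.6 (-1.51). Prc1 was at 3.31 and 16.2 CPM (2.29), Cenpf at 4.04 and 14.7 (1.86) and Tpx2 at 4.04 and 13.9 (1.78). The fixed examples lay nearer to equal, Mki67 at 49.6 and 58.3 CPM (0.23, -0.03 to 0.51), Top2a at 36.0 and 32.7 (-0.14, -0.46 to 0.19), Pcna at 123 and 140 (0.19), Mcm6 at 18.8 and 13.9 (-0.44, -0.89 to 0.04) and Ccnb1 at 5.51 and 7.32 (0.41, -0.39 to 1.30). The number of members higher in tail suspension moved between 5 and 39 of 40 with the clustering and the filters. In the 3 mononuclear phagocyte classes joined (macrophage, monocyte and MHC-II myeloid cell) 4.58% (3.75 to 5.52) and 3.48% (2.88 to 4.15) were cycling, a log2 ratio of -0.40 (-0.79 to 0.00). There 12 of 40 members were higher (6 with median-of-ratios scaling), 1 at least 2-fold higher and 1 at least 2-fold lower, beside 13.7% and 3.85% of all genes and a median of all genes of 0.22.

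T cells were called cycling in 10.3% (60 of 584 cells) and 9.61% (90 of 937 cells), a log2 ratio of -0.10 (-0.58 to 0.40). The S call was lower in tail suspension, 8.56% and 5.55% (-0.63, -1.21 to -0.04), and the G2/M call was not, 7.19% and 7.47% (0.05, -0.52 to 0.64). By cluster the share was 17.1% (11.3 to 24.4) and 6.73% (3.73 to 11) in cluster 15, led by Gzma, Ccl5 and Nkg7. It was 8.19% and 8.31% in cluster 16, led by Cd3g, Trbc2 and Ramp1, and 9.21% (3.78 to 18.1) and 13.8% (9.45 to 19.2) in cluster 19, led by Ctla4, Cd2 and Cd3g. Cluster 18, led by Ctla2a, Gata3 and Il2ra, had 1 of 26 cells and 16 of 146 cells. The intervals did not overlap in cluster 15 alone, among these 4. No member was 2-fold different in T cells, beside 9.16% of all genes at least 2-fold higher and 4.64% at least 2-fold lower, and 28 of 40 members were lower (median -0.18; all genes -0.02). Stmn1 was at 129 and 74.8 CPM (-0.78), Cenpa at 142 and 85.6 (-0.73), Rrm2 at 63.9 and 39.4 (-0.70) and Mki67 at 153 and 101 (-0.60). Nusap1 was at 74.2 and 114 CPM (0.62), Ccnb1 at 12.5 and 18.1 (0.54), Aurkb at 13 and 17.9 (0.47, -0.04 to 0.99) and Mcm6 at 53.3 and 65.2 (0.29). Top2a was at 178 and 143 CPM (-0.31) and Pcna at 206 and 185 (-0.16). With doublets kept or called by the automatic threshold, 22 and 26 members were higher in place of 12.

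Tenocytes had 13 and 6 called cells, too few to compare their shares. Of the members 25 of 40 were higher in tail suspension (median 0.32), 3 at least 2-fold higher and none at least 2-fold lower, beside 9.77% of all genes at least 2-fold higher and 10.4% at least 2-fold lower and a median of -0.01. Nusap1 was at 3.13 and 8.51 CPM (1.44), Prc1 at 3.75 and 8.17 (1.12) and Hmgb2 at 69.3 and 138 (0.99). Cenpa was at 10.6 and 5.91 CPM (-0.85), Tpx2 at 4 and 2.78 (-0.53, -1.39 to 0.25) and Stmn1 at 10.4 and 8.34 (-0.32, -0.80 to 0.13). Pcna was at 59.0 and 81.5 CPM (0.47), Mcm6 at 3.59 and 6.08 (0.76), Top2a at 9.55 and 15.6 (0.71), Mki67 at 6.80 and 7.47 (0.14, -0.38 to 0.63) and Ccnb1 at 2.63 and 3.30 (0.33, -0.49 to 1.09). Most of the class was cluster 0, led by Col1a1, Thbs4 and Col1a2, in non-tail suspension (882 of 926 cells) and cluster 20, led by Angptl7, Clu and Fmod, in tail suspension (603 of 671 cells).

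In mature neutrophils only 31 members reached 20 UMIs and 25 of these were higher in tail suspension, 13 at least 2-fold higher and 1 at least 2-fold lower, beside 12.3% and 12.2% of all genes. Of all measured genes 49% were higher, with a median of -0.01. The S-phase and G2/M genes summed to 146 and 165 CPM (log2 ratio 0.17, 0.04 to 0.31). Some ratios rest on few UMIs, as for Mcm6 (22 and 8 UMIs, 0.67, -0.71 to 1.89), Ccnb1 (15 and 6, 0.80, -0.85 to 2.25) and Top2a (54 and 23, 0.89, 0.12 to 1.62). The class had 3 called cells in each library, and the log2 ratio of the shares was 2.59 (-0.31 to 5.49). Its clusters differed between the libraries. Cluster 9, led by Retnlg, Cstdc5 and S100a8, held 170 of 5101 cells in non-tail suspension and 753 of 974 in tail suspension. Clusters 5, 6 and 8 held 1224, 1158 and 2549 cells in non-tail suspension and 10, 110 and 101 in tail suspension. The part of these clusters in the ratios was not tested. Among members with at least 100 UMIs were Hmgb2 (1220 and 1533 CPM, log2 ratio 0.33), Kif23 (17.9 and 10.2, -0.82), Cenpa (22.6 and 15.5, -0.54), Pcna (43.5 and 33.3, -0.39) and Mki67 (6.27 and 7.61, 0.28, -0.39 to 0.91). The sign of Pcna turned under 9 of 12 alternatives.

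**Figure D4:**
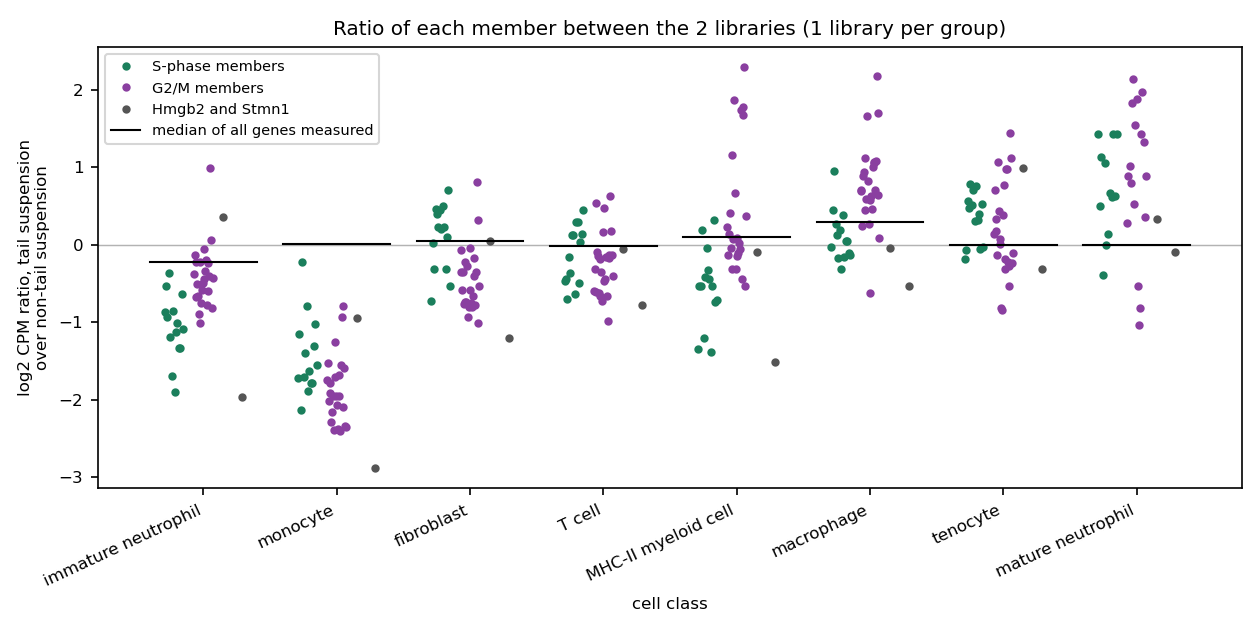
Log2 CPM ratio between the libraries (above 0: higher in tail suspension) for each measured member (points; green, S-phase; purple, G2/M; grey, Hmgb2 and Stmn1) in 8 cell classes, with the median of all measured genes as a black line; 1 library per group. All members lie below 0 in monocytes (median -1.76), and most G2/M genes lie above the line in macrophages (median 0.71).

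Among the members, 6 had 1 direction in at least 7 of the 8 classes. Tyms, Cenpa and Kif23 were each lower in tail suspension in 7 and higher in 1, with median log2 ratios of -0.60, -0.66 and -0.53 and intervals below 0 in 5, 7 and 4 classes. Stmn1 was lower in tail suspension in 8 of 8 classes, with a median log2 ratio of -0.99, and the interval lay below 0 in 6. Nusap1, which bundles spindle microtubules, was higher in 7 of 8 classes, with a median of 1.21, and lower in monocytes (59.7 and 34.5 CPM, -0.79). Prc1, which cross-links the microtubules of the central spindle, was higher in 7 of 8, with a median of 0.72 and intervals above 0 in 5, and lower in monocytes (39.8 and 13.2 CPM, -1.59). Mki67 by comparison was higher in 4 and lower in 4. The direction of Stmn1 turned in MHC-II myeloid cells with at least 1000 genes per cell (0.56) and in fibroblasts at resolution 0.5 (0.64). Prc1 in immature neutrophils (0.06, -0.34 to 0.47) lay between -0.21 and 0.46 over the alternatives. These 6 members were chosen after their values were seen. How many of all genes had 1 direction in at least 7 classes was not counted. The 8 classes share the same 2 libraries, so their directions are not independent, and the 6 are not shown to differ from other genes in this.

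Levels of Stmn1 and Nusap1 inside the called cells are given as a description, since both genes were picked for their values in the same cells and Nusap1 is a gene of the call. Stmn1 was at 240 and 109 CPM in called fibroblasts of non-tail and tail suspension, 605 and 278 in called T cells, 359 and 172 in called monocytes and 267 and 88.3 in called immature neutrophils. Nusap1 was at 145 and 262 CPM in called fibroblasts, 353 and 509 in called T cells, 198 and 451 in called monocytes and 166 and 467 in called immature neutrophils. In called macrophages Stmn1 was at 356 and 197 CPM and Nusap1 at 121 and 433 CPM. In these 5 classes, and in the called tenocytes and MHC-II myeloid cells, Stmn1 was lower and Nusap1 higher in tail suspension. For Nusap1 in monocytes this is the opposite of the class as a whole. The called mature neutrophils, 3 cells in each library, had 101 and 0 CPM of each gene. Prc1 was at 199 and 264 CPM in called fibroblasts and at 193 and 185 CPM in called T cells, so its direction was not the same in all called sets.

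**Figure D5:**
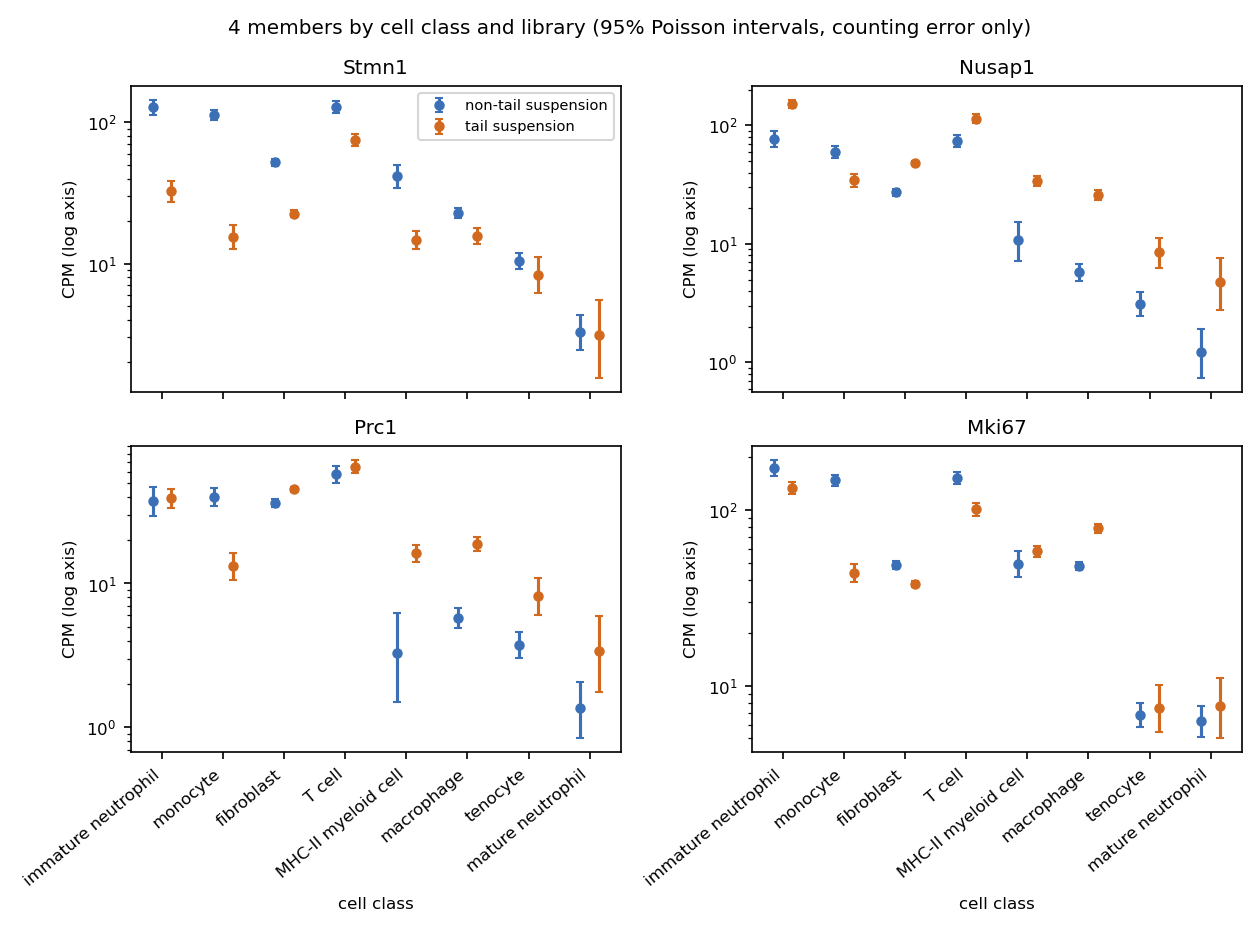
Level (CPM, log axis) of Stmn1, Nusap1, Prc1 and Mki67 in 8 cell classes; points are 1 library each (blue, non-tail suspension; orange, tail suspension) with exact Poisson intervals. Stmn1 is lower in tail suspension in all 8 classes, Nusap1 higher in 7 of 8, and Mki67 goes either way.

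The other cell cycle lists were compared in the same way. In monocytes 58 of 58 measured mitosis genes and 38 of 39 replication genes were lower in tail suspension, with medians of -1.70 and -1.0, beside 51% of all measured genes higher. In macrophages 53 of 59 mitosis genes were higher, with a median of 0.72, beside 67.9% of all measured genes and their median of 0.29. The 15 inhibitor genes did not go one way in fibroblasts (7 higher and 8 lower, median -0.01), where 3 were at least 2-fold lower, beside 7.35% of all genes. Cluster 3 held 645 of 966 fibroblasts in non-tail suspension and 39 of 4295 in tail suspension. The 3 genes were the CDK4 and CDK6 inhibitors Cdkn2a (26.2 and 3.02 CPM, log2 ratio -3.12), Cdkn2b (17.5 and 2.91, -2.59) and Cdkn2c (54.4 and 19.5, -1.48). Cdkn2a and Cdkn2b were lower in tenocytes too, at -1.78 and -1.87, and over the connective tissue classes joined, at -2.05 and -1.92. Their target Cdk4 went from 139 to 72.2 CPM over the joined classes (-0.94), while Cdkn1a was higher in tail suspension, at 120 and 234 CPM (0.97). Of the G1 cyclin and kinase genes 7 of 8 were higher over the joined classes, and of the transcription factor genes 14 of 15, with medians of 0.37 and 0.45, beside 54.3% of all measured genes. In monocytes 1 of 8 and 4 of 14 were higher. Lmnb1, the lamin B1 gene of the mitosis list, was lower in tail suspension in macrophages, at 108 and 31.5 CPM (-1.78), unlike most of that list. It was at 2014 and 856 CPM in mature neutrophils (-1.23) and 264 and 107 CPM in T cells (-1.31).

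Among classes with fewer than 100 cells in a library, B cells were called cycling in 18 of 91 cells (19.8%, 12.2 to 29.4) of non-tail suspension and 4 of 238 (1.68%, 0.460 to 4.25) of tail suspension. Of 5 genes of B cell precursors, Vpreb1 was at 544 CPM in called and 33.9 CPM in other B cells of non-tail suspension and Igll1 at 365 and 15.4 CPM. Vpreb3 was at 1086 and 1293 CPM, Rag1 at 2.94 and 135 CPM and Dntt at 5.88 and 3.08 CPM. In tail suspension Vpreb3 was at 506 CPM in called and 141 CPM in other B cells, and the other 4 genes had no UMI. Sheath or lining fibroblasts, marked by Prg4, Htra4 and Clic5, were called in 12.2% (6.01 to 21.3, 10 of 82) and 11.2% (9.46 to 13, 139 of 1246). Blood endothelial cells were called in 2.74% (0.334 to 9.55) and 10.3% (5.41 to 17.2). Keratinocytes were found in tail suspension with 34 of 54 cells called (63.0%, 48.7 to 75.7), osteoclasts in non-tail suspension with 8 of 57 (14.0%, 6.26 to 25.8), and erythroid cells in tail suspension with 8 of 38 (21.1%, 9.55 to 37.3). The keratinocytes had the largest share of any class with at least 50 cells at depth.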

How the data were processed

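The authors deposited 1 raw matrix of UMI counts per library, with whole-number counts per gene and barcode. Per the submitters' processing notes Cell Ranger 5.0.1 and GRCm38 were used, with no role stated for either, while the matrix headers name software version 3.1.0. The members and lists were chosen with earlier results of these data known. Barcodes with under 300 genes (91 in non-tail suspension and 268 in tail suspension) or over 20% mitochondrial UMIs (468 and 948) were left out. Doublets were scored with Scrublet. Its automatic threshold gave 0 and 492 doublets, so a score above 0.25 was used, which removed 311 and 905 barcodes. Cells were clustered together in scanpy 1.11.5 (2000 variable genes without the listed cell cycle genes and histone genes, 30 components, Leiden resolution 1.0). Clusters were named from marker lists by a rule set after seeing the data. A name needed at least 3 markers of its class among the 50 leading genes, and more markers among the 10 leading genes than any class with other markers had (in a tie, at least 5 among the 50). A cluster of low depth with no marker among the 10 stayed unnamed.

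Calls used cells with at least 2000 UMIs, thinned to that number, and shallower cells were left out (9786 and 12169 cells remained). Levels are UMIs summed over a class per 1000000 UMIs of the class, and ratios are log2 values, positive where tail suspension was higher. Ratios were computed for genes with at least 20 UMIs in both libraries together. For each class the text names, among members with at least 100 UMIs, the 3 with the largest ratio in each direction, and Mki67, Top2a, Mcm6, Pcna and Ccnb1. Other members named were chosen after their values were seen. The scripts were tested on simulated data. The joined classes, the progenitor and pre-B gene lists, the automatic doublet threshold, the comparison without mature neutrophils and the mean within clusters were added after seeing the data.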

Additional observations from a re-analysis of the deposited data

Results flagged for a closer look

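The share of cycling cells went in opposite directions between the 2 libraries in different cell classes. The log2 ratio between the libraries, positive where tail suspension was higher, was 0.62 in macrophages, -0.60 in fibroblasts and -2.60 in monocytes, and each counting interval excluded 0. These 3 classes were singled out because 1 was higher and the other two lower in tail suspension. Both the macrophage and the fibroblast value turned as a mean within clusters, to -1.60 and 0.47, and the clusters that hold each class differ between the libraries. Over the alternatives they ranged from -1.60 to 1.18 and from -0.90 to 1.65. The difference between the classes was not tested, since each group is 1 library.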

How the results depend on the processing

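With 1 library per group no fit without a library was run. No paired analysis was possible because each group holds 1 library. Of 151 alternative cycling share ratios 130 stayed within the counting interval, and 126 had the sign of the reported value. For single members 676 of 1026 alternatives stayed within the counting interval and 933 kept the sign. For summed member levels 33 of 126 alternatives stayed within it and 104 kept the sign. Monocytes had no class in 1 or both libraries at resolution 0.5, with cell cycle genes kept in the clustering and in a separate clustering of each library, and tenocytes had none in the last of these, so no value is given there. Few called cells limit the shares of tenocytes (13 and 6) and mature neutrophils (3 and 3). Where a value turned or moved, the cause was not tested.

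Cycling share ratios left the counting interval or turned from a value whose interval excluded 0 as follows, and other sign changes stayed within the interval. Over all cells 0.84 became 0.33 at 5000 UMIs, 0.41 with at least 1000 genes and 0.05 without mature neutrophils. In fibroblasts -0.60 became -0.24 at 5000 UMIs, 0.20 with at least 500 genes, 1.65 and -0.16 at resolution 0.5 and 2.0, -0.22 with each library clustered separately and 0.47 within clusters. In macrophages 0.62 became -1.60 within clusters. In monocytes -2.60 became -1.70 at 5000 UMIs, -1.37 with at least 2 members and -1.29 with at least 500 genes. In the joined phagocytes -0.40 became 0.06 with at least 2 members and 0.31 with each library separately. In MHC-II myeloid cells -0.83 became 1.5 with at least 1000 genes, 0.36 at resolution 2.0 and 0.61 with the automatic doublet threshold. In the joined connective tissue classes 0.20 became -0.52 with doublets kept, 1.49 at resolution 0.5 and -0.44 with each library separately.

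Counts of members higher in tail suspension moved too. In fibroblasts 13 became 30 with at least 500 genes, 40 and 24 at resolution 0.5 and 2.0, 21 with cell cycle genes kept in the clustering and 22 with each library separately. In MHC-II myeloid cells 17 became 27 and 39 with at least 500 and 1000 genes, 11 with doublets kept, 5 and 34 at resolution 0.5 and 2.0, 9 with each library separately and 33 with the automatic doublet threshold. In monocytes 0 became 4 with at least 500 genes, 1 as a mean over cells and 2 without progenitor-marker cells. In the joined phagocytes 12 became 21 with at least 1000 genes, 29 with cell cycle genes kept, 34 with each library separately, 6 with median-of-ratios scaling and 19 as a mean over cells. In immature neutrophils 3 became 5 with at least 1000 genes, 7 with median-of-ratios scaling and 10 as a mean over cells. In the joined connective tissue classes 34 became 12 with doublets kept and 15 with each library separately. In T cells 12 became 22 with doublets kept and 26 with the automatic threshold.

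Summed member levels whose counting interval excluded 0 turned sign in 5 classes. In MHC-II myeloid cells, where it included 0, 0.03 became -0.27 with doublets kept, -0.41 at resolution 0.5, -0.65 with each library separately and -0.07 with median-of-ratios scaling. In fibroblasts -0.23 became 0.41 with at least 500 genes, 1.42 and 0.14 at resolution 0.5 and 2.0, 0.06 with cell cycle genes kept and 0.10 with each library separately. In tenocytes 0.29 became -0.29 with at least 500 genes, -0.25 with doublets kept and -0.27 at resolution 0.5. In the joined phagocytes -0.08 became 0.10 with at least 1000 genes, 0.05 at resolution 2.0, 0.23 with cell cycle genes kept, 0.43 with each library separately, 0.05 as a mean over cells and 0.01 with the automatic threshold. In the joined connective tissue classes 0.42 became -0.16 with doublets kept and -0.08 with each library separately. In T cells -0.24 became 0.06 with doublets kept and 0.11 with the automatic threshold.

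Among single members whose counting interval excluded 0, these turned, and sign changes of the others are not listed. Pcna in mature neutrophils (-0.39) became 0.10 and 0.36 with at least 500 and 1000 genes, 0.08 with doublets kept, 0.15 and 0.22 at resolution 0.5 and 2.0, 0.15 with cell cycle genes kept, 0.17 with each library separately, 0.08 as a mean over cells and 0.07 with the automatic threshold. Kif23 there became 0.27 with at least 1000 genes. In fibroblasts, with at least 500 genes, at resolution 0.5, at 2.0, with cell cycle genes kept and with each library separately, Mki67 (-0.36) became 0.36, 1.60, 0.08, 0.04 and 0.03, and Ccnb1 (-0.35) became 0.40, 1.63, 0.12, 0.03 and 0.06. At resolution 0.5 Stmn1, Cdc20 and Cenpe in fibroblasts became 0.64, 0.97 and 1.12, and Tpx2 in MHC-II myeloid cells became -0.06. With at least 1000 genes Stmn1, Mcm7, Tyms and Pcna in MHC-II myeloid cells became 0.56, 0.28, 0.17 and -0.03, and Hmgb2 over all cells (-0.08) became 0.10. Pcna in MHC-II myeloid cells became -0.07 with doublets kept. Pcna in monocytes (-0.22) became 0.07 with at least 500 genes, 0.09 as a mean over cells and 0.40 without progenitor-marker cells. Pcna in T cells (-0.16) became 0.04 with doublets kept and 0.08 with the automatic threshold. With that threshold Top2a became 0.05 in T cells and -0.01 in tenocytes. Pcna in macrophages became -0.02 with median-of-ratios scaling.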
